A study of Mus musculus with 12 samples.

Results

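Atf3, Jun, Sox11, Sprr1a, Gap43, Ecel1 and Gadd45a, genes known for their induction after axon injury, were followed in the spinal cord of 4 mouse genotypes. The members were the 7 genes with these symbols among the 45906 genes of the count table, and all 7 passed the filter on low counts that left 20155 genes for testing. The mice were Plekhg5+/+, Plekhg5-/-, Plekhg5+/+ SOD1-G93A and Plekhg5-/- SOD1-G93A animals, all 7 months old, with 3 mice in each genotype and 1 library of spinal cord RNA from each mouse. Plekhg5-/- mice lack Plekhg5, a guanine exchange factor that acts in the autophagy of synaptic vesicles in motoneurons. SOD1-G93A mice carry a human SOD1 transgene with a mutation that causes amyotrophic lateral sclerosis, and the line used here is a low-copy line with a slow course. The study crossed the lines to ask how the loss of Plekhg5 alters the disease of SOD1-G93A mice. Sex was not a factor of the design. Y-linked transcripts were found in 3 of 3 Plekhg5+/+, 2 of 3 Plekhg5-/-, 2 of 3 Plekhg5+/+ SOD1-G93A and 1 of 3 Plekhg5-/- SOD1-G93A libraries.

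As background, a neuron whose axon is cut switches on a programme of regeneration-associated genes. The signal runs from the injured axon to the nucleus through the kinase DLK and its target JNK, which phosphorylates Jun, and Jun and Atf3 then act with Sox11 and Stat3 as transcription factors of the response. Among the effectors, Gap43 is a membrane phosphoprotein of growth cones, Sprr1a is a small proline-rich protein of the epidermis that injured neurons make and that promotes neurite outgrowth, and Ecel1 is a membrane protein of the neprilysin family that is induced in injured neurons. Gadd45a is a stress and DNA damage gene that is also induced in axotomized neurons. Injured spinal motoneurons and sensory neurons of dorsal root ganglia are the classical sites of this response, and Atf3 is the marker most widely used for it.

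The libraries held 30415643 to 38743628 counts, with a median of 32714352. Plekhg5 fell to 0.174 of the control level in Plekhg5-/- mice and to 0.190 in Plekhg5-/- SOD1-G93A mice, each against its Plekhg5+/+ counterpart (edgeR's quasi-likelihood test, adjusted p = 5.39e-06 and 9.06e-06). Human SOD1 lay between 4421 and 5638 CPM (counts scaled to library size, with TMM factors) in the 6 transgenic libraries and between 0.153 and 5.47 CPM in the 6 others. Replicate 2 of Plekhg5-/- SOD1-G93A stood apart for transcripts of sensory neurons. It had a summed level of 53.2 CPM over 10 genes of dorsal root ganglion neurons, against 12.8 to 17.5 CPM in the other 11 libraries. In that library the sensory neuron sodium channel Scn10a had 270.5 counts and Scn11a had 166 counts, where no other library reached 20 counts for either. Members' values without this library are given below for the transgene in Plekhg5-/- mice and for the loss of Plekhg5 in SOD1-G93A mice. For Jun, Sox11, Gap43 and Ecel1 the former are given as a range. Mean effects without this library are given for Atf3 and Sprr1a only, and the interaction for Gadd45a only. Sums over 10 skeletal muscle genes also differed between libraries, with 171.8 CPM in Plekhg5+/+ replicate 3, 96.6 CPM in Plekhg5+/+ SOD1-G93A replicate 3, 60.1 CPM in Plekhg5-/- replicate 2 and 46.1 CPM in Plekhg5-/- SOD1-G93A replicate 2, against 4.43 to 10.5 CPM in the other 8 libraries. The part of muscle transcripts in the values below was not tested.

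All 7 genes lie on the minus strand of GRCm38.p6, the build of the count table. The transcription factor genes are Atf3 (gene ID 11910, chr1:191170296-191183333), Jun (gene ID 16476, chr4:95049036-95052222) and Sox11 (gene ID 20666, chr12:27334268-27342718). The effector genes are Sprr1a (gene ID 20753, chr3:92483954-92485881), Gap43 (gene ID 14432, chr16:42248552-42340651) and Ecel1 (gene ID 13599, chr1:87142874-87157085), and Gadd45a (gene ID 13197) lies at chr6:67035096-67037407. Jun is on the chromosome of the targeted gene, 57.0 Mb from Plekhg5. The levels of the 7 genes, as CPM per kb of exon averaged over all 12 libraries, spanned Gap43 at 97.4, Jun at 17.1, Gadd45a at 9.77, Ecel1 at 8.96, Sprr1a at 2.37, Atf3 at 2.36 and Sox11 at 0.938. Gap43 was thus among the most abundant transcripts of the cord, at the 97.4th percentile of the genes tested, while Atf3 and Sprr1a were at the 39.6th percentile and Sox11 at the 26.4th.

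The upstream sequences of Atf3, Sprr1a and Jun are shown because Atf3 and Sprr1a had the largest differences between genotypes, and Jun encodes a partner that binds the same kinds of site. RefSeq windows were given for 6 of the 7 genes, Gap43 being the exception. Each window runs from 250 bases before to 50 bases after the RefSeq start site on GRCm38.p6, and the 250 bases before it are printed 5′ to 3′ on the minus strand, for Atf3 chr1:191183334-191183583, for Sprr1a chr3:92485882-92486131 and for Jun chr4:95052223-95052472. Capitals mark matches, on either strand, to 4 motifs. These are the AP-1 site TGANTCA, bound by Fos, Jun and Atf dimers, the cyclic AMP response element (CRE) TGACNTCA, the composite C/EBP-ATF site TGATGCAA and the TATA box TATAAA.
Atf3: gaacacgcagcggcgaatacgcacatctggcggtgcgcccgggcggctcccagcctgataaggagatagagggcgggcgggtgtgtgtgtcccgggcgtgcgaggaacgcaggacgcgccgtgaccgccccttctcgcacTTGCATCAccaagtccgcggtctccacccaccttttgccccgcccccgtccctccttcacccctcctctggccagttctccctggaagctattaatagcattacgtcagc
Sprr1a: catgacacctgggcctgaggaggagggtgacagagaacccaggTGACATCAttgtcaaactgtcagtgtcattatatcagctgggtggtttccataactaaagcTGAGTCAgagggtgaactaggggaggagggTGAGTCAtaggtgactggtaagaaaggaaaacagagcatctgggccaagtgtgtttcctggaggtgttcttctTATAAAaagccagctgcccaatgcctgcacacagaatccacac
Jun: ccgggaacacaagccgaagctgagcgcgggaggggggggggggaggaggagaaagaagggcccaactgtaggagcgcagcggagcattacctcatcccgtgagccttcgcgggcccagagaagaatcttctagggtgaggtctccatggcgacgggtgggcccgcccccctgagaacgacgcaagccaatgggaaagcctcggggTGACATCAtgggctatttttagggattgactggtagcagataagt

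The Sprr1a window held AP-1 matches that begin 146 and 116 bases before the start, a CRE match at 207 bases and a TATA box at 43 bases. The Atf3 window held the C/EBP-ATF site in the opposite orientation, as TTGCATCA, 110 bases before the start. Jun had a CRE match 45 bases before its start and Sox11 had one at 42 bases, in the opposite orientation. Over 27025 RefSeq windows of this length, taking 1 for each gene, the AP-1 letters occurred in 7.93%, the CRE letters in 8.97%, the C/EBP-ATF letters in 0.929% and the TATA letters in 14.2%. Ecel1 and Gadd45a held none of the 4 motifs in these windows. The Ecel1 window, chr1:87156307-87156606, lies inside the range of that gene in the count table, which ends at 87157085, so sequence upstream of that range was not searched. No reading of factor binding follows from letters alone.

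**Figure D1:**
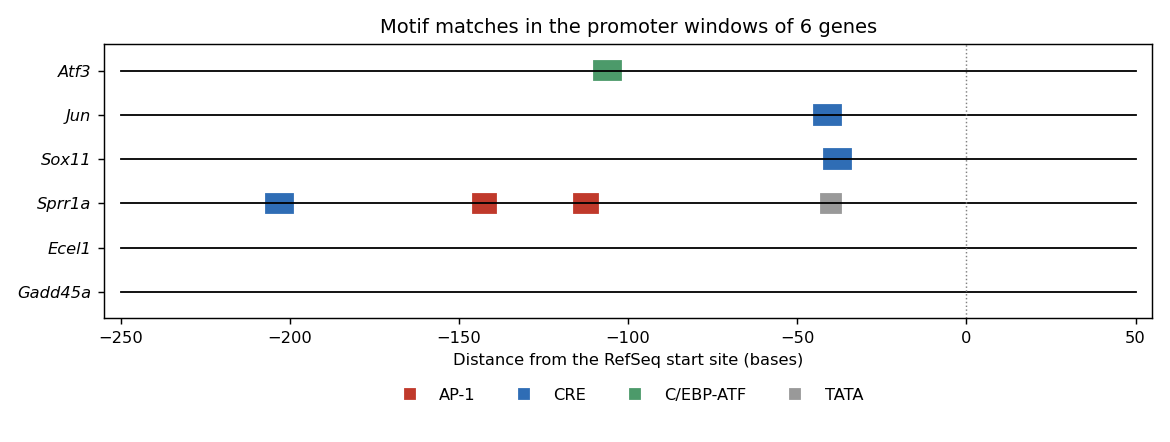
Motif matches (coloured boxes) in the RefSeq windows of 6 genes, by distance in bases from the start site at 0 (dotted line). Sprr1a holds 4 matches, Atf3, Jun and Sox11 hold 1 each, and Ecel1 and Gadd45a hold none.

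Of the 7 genes, Atf3 alone rose past the threshold in SOD1-G93A mice. In the presence of Plekhg5 all 7 log2 fold changes were above 0, with a median of 0.24 where the median over all genes tested was -0.001, and 1 of 7 was called at an adjusted p under 0.05. Over all genes tested in that comparison 2.47% were called. In Plekhg5-/- mice the transgene gave 6 of 7 log2 fold changes above 0, with a median of 0.12 against -0.01 over all genes, and 0 of 7 were called by edgeR, where 0.00496% of all genes were called. At an unadjusted p under 0.05 the counts of members were 3 of 7 with Plekhg5 and 2 of 7 without it, beside 18.2% and 5.38% of all genes. DESeq2 called 2 of 7 with Plekhg5 and 1 of 7 without it, where it called 5.91% and 0.206% of all genes to which it gave an adjusted p. Without overlap between the groups, 3 of 7 members were higher with Plekhg5 and 1 of 7 without it, beside 11.6% and 7.26% of all genes. Both transgene comparisons, averaged with equal weight into a mean effect of SOD1-G93A, again called 1 of 7, where 1.22% of all genes were called, and 3 of 7 had an unadjusted p under 0.05, beside 14.7% of all genes. For this mean effect DESeq2 called 2 of 7 and 3.94% of all genes.

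Atf3, a stress-induced factor of the ATF/CREB family, was the member with the largest difference. In Plekhg5+/+ mice it measured 3.54, 2.64 and 1.99 CPM, and in Plekhg5+/+ SOD1-G93A mice 14.3, 6.40 and 4.77 CPM. It measured 1.40, 1.48 and 2.43 CPM in Plekhg5-/- mice, and in Plekhg5-/- SOD1-G93A mice 6.91, 5.22 and 5.02 CPM. Every transgenic library lay above every library without the transgene, whether Plekhg5 was present or not, and the highest library exceeded the lowest 10.2-fold. Of all genes tested, 1.52% were higher without overlap in the same split of 6 against 6 libraries. Atf3 rose 3.11-fold in Plekhg5+/+ SOD1-G93A mice (log2 fold change 1.64, SE 0.38, 95% interval 0.82 to 2.45, edgeR's quasi-likelihood test, adjusted p = 0.0452). In the absence of Plekhg5 the ratio was 3.23 (log2 fold change 1.69, SE 0.39, 95% interval 0.84 to 2.55), with an adjusted p of 0.455 by the same edgeR test and an unadjusted p of 0.00104. The mean effect of the transgene was 3.17-fold (95% interval of the log2 fold change 1.07 to 2.26, edgeR adjusted p = 0.0263). With DESeq2's fold-change prior, which shrinks uncertain values toward 0, the log2 fold changes of Atf3 were 0.53 in Plekhg5+/+ mice, 0.45 in Plekhg5-/- mice and 0.49 for the mean effect.

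The size of the Atf3 difference depended on 1 mouse more than its direction did. Replicate 1 of Plekhg5+/+ SOD1-G93A held 460 Atf3 counts, the most of any library, and without it the log2 fold change in Plekhg5+/+ mice was 1.03 (edgeR adjusted p = 0.114) and the mean effect was 1.36 (edgeR adjusted p = 0.00247). Without replicate 2 of Plekhg5-/- SOD1-G93A, the library with sensory neuron transcripts, the log2 fold change in Plekhg5-/- mice was 1.75 and the mean effect was 1.69 (edgeR adjusted p = 0.0629). The call in Plekhg5+/+ mice rested near the threshold, since leaving out any of 10 of the 12 libraries raised the adjusted p above it, to between 0.051 and 0.179. With Y-linked transcripts as a covariate the edgeR adjusted p was 0.0277.

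Atf3 levels overlapped between mice with and without Plekhg5, and the loss of Plekhg5 was not called. The Plekhg5-/- SOD1-G93A mean was 5.72 ± 1.04 CPM (SD, n = 3) and the Plekhg5+/+ SOD1-G93A mean 8.49 ± 5.09 CPM (SD, n = 3), a gap smaller than the larger of the SDs, and the log2 fold change was -0.57 (95% interval -1.35 to 0.20, edgeR adjusted p = 0.637). It was 0.03 without replicate 1 of Plekhg5+/+ SOD1-G93A, and -0.51 without replicate 2 of Plekhg5-/- SOD1-G93A. Between mice without the transgene the means were 1.77 ± 0.572 and 2.72 ± 0.777 CPM (SD, n = 3) for Plekhg5-/- and Plekhg5+/+, a gap of 0.954 CPM that exceeded the larger SD. The log2 fold change was -0.63 (95% interval -1.51 to 0.26, edgeR adjusted p = 0.976). The effect of the transgene itself differed between the Plekhg5 genotypes by 0.06 on the log2 scale, with a 95% interval of -1.11 to 1.22 that also holds differences of over 2-fold either way.

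Jun, the target of JNK, measured 51.3, 48.0 and 47.5 CPM in Plekhg5+/+ mice and 68.8, 55.1 and 49.9 CPM in Plekhg5+/+ SOD1-G93A mice. Levels in Plekhg5-/- mice were 52.3, 47.8 and 61.6 CPM, and in Plekhg5-/- SOD1-G93A mice 62.4, 51.5 and 56.9 CPM. The groups overlapped in both comparisons. The log2 fold changes were 0.24 with Plekhg5 (95% interval -0.01 to 0.50, edgeR adjusted p = 0.308) and 0.08 without it (95% interval -0.18 to 0.34, edgeR adjusted p = 0.959), and both intervals include 0.

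Sox11, a factor of neuronal growth in development, was the member with the lowest level per length, with 199.5 to 333.5 counts per library. Its values were 7.77, 7.33 and 8.37 CPM in Plekhg5+/+ mice and 10.4, 6.58 and 8.22 CPM in Plekhg5+/+ SOD1-G93A mice. The lowest and the highest of these 6 values both came from transgenic mice. The log2 fold changes with the transgene were 0.10 (95% interval -0.21 to 0.42) with Plekhg5 and 0.12 (95% interval -0.20 to 0.43) without it, where Plekhg5-/- mice measured 6.44 to 8.13 CPM and Plekhg5-/- SOD1-G93A mice 7.83 to 8.36 CPM.

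Sprr1a had the next largest difference after Atf3, at a low count of 16 to 113 per library. It measured 0.667, 1.42 and 1.41 CPM in Plekhg5+/+ mice and 3.45, 2.31 and 1.95 CPM in Plekhg5+/+ SOD1-G93A mice. The values in Plekhg5-/- mice were 0.468, 1.24 and 1.89 CPM, and in Plekhg5-/- SOD1-G93A mice 3.48, 1.79 and 2.36 CPM. The groups did not overlap with Plekhg5, and overlapped without it because Plekhg5-/- replicate 3 exceeded Plekhg5-/- SOD1-G93A replicate 2. The ratios of 2.21 with Plekhg5 (95% interval of the log2 fold change 0.21 to 2.08) and 2.13 without it (0.16 to 2.02) were close to each other, and neither passed the threshold (edgeR adjusted p = 0.179 and 0.866). The mean effect, 2.17-fold, reached an adjusted p of 0.093 by edgeR and 0.0143 by DESeq2. Loss of Plekhg5 in SOD1-G93A mice gave a log2 fold change of -0.02, with an interval of -0.89 to 0.86, and of 0.18 without replicate 2 of Plekhg5-/- SOD1-G93A, while the mean effect of the transgene without that library was 1.22 (edgeR adjusted p = 0.119).

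**Figure D2:**
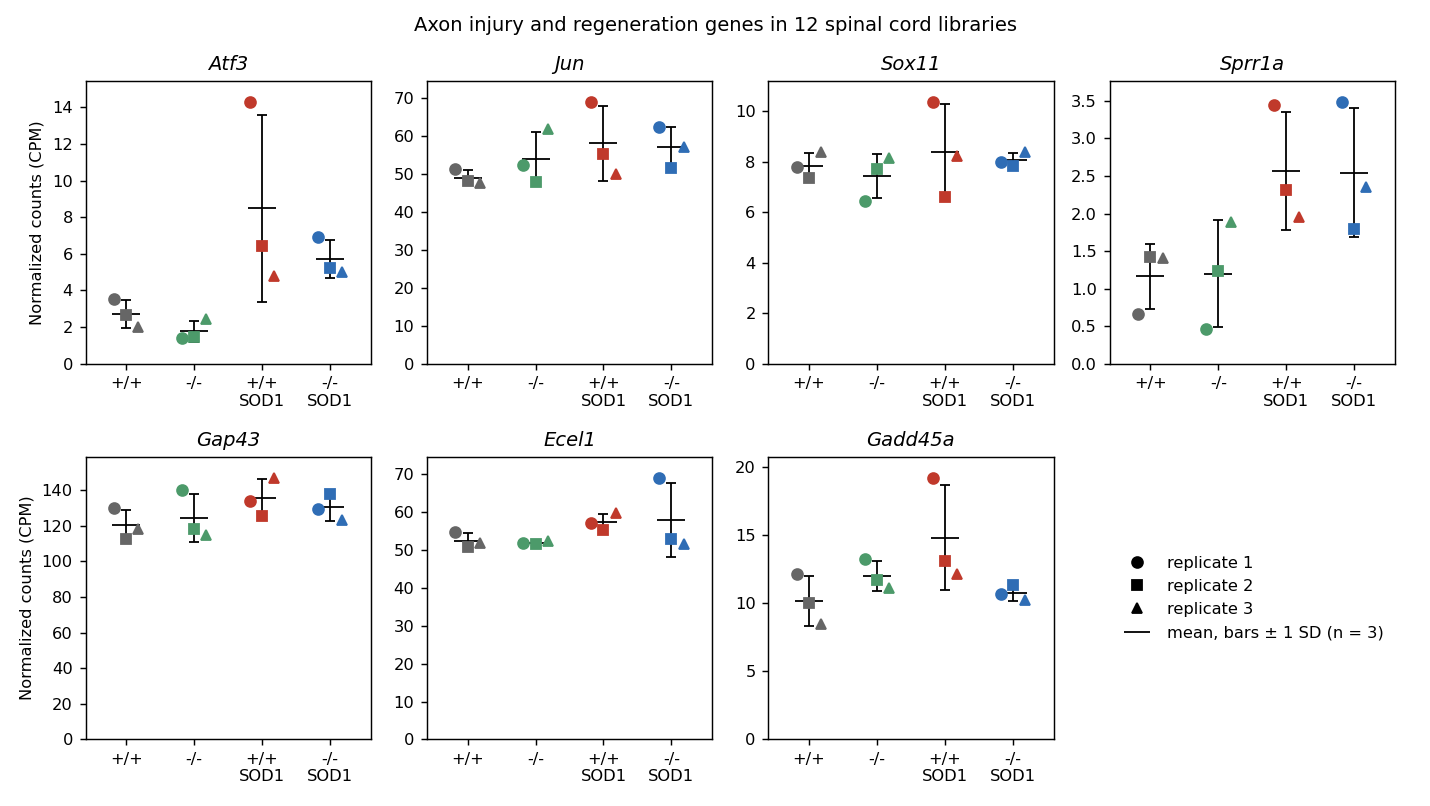
Normalized counts (CPM) of the 7 genes in each of 12 libraries, by genotype (SOD1 stands for SOD1-G93A). Symbols mark replicates 1 to 3, and horizontal lines with bars give the mean ± 1 SD (n = 3). Atf3 is the only gene of the 7 whose 6 transgenic libraries, at 4.77 to 14.3 CPM, all lie above the 6 others, at 1.40 to 3.54 CPM.

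Gap43 was abundant and nearly level, with 3575 to 4902 counts per library. Its values were 129.9, 112.5 and 118.2 CPM in Plekhg5+/+ mice, 140.1, 118.3 and 114.9 CPM in Plekhg5-/- mice, 133.9, 125.4 and 147.0 CPM in Plekhg5+/+ SOD1-G93A mice, and 129.5, 138.0 and 123.3 CPM in Plekhg5-/- SOD1-G93A mice. All groups overlapped, and the highest library was 1.31 times the lowest. The log2 fold change with the transgene was 0.17 with Plekhg5 (95% interval -0.02 to 0.36, edgeR adjusted p = 0.331) and 0.07 without it (95% interval -0.12 to 0.26). Increases of more than 1.3-fold are outside both intervals.

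Ecel1 measured 54.6, 50.7 and 51.9 CPM in Plekhg5+/+ mice and 57.1, 55.4 and 59.7 CPM in Plekhg5+/+ SOD1-G93A mice. Levels in the absence of Plekhg5 were 51.8, 51.6 and 52.4 CPM in Plekhg5-/- mice, and in Plekhg5-/- SOD1-G93A mice 69.1, 52.9 and 51.6 CPM. The 3 Plekhg5+/+ SOD1-G93A values lay just above the 3 controls, while in the absence of Plekhg5 only replicate 1 of the transgenic mice was well above its controls. The log2 fold changes were 0.13 (95% interval -0.07 to 0.33, edgeR adjusted p = 0.498) and 0.15 (95% interval -0.05 to 0.36, edgeR adjusted p = 0.95).

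Gadd45a was the member whose difference with the transgene pointed in opposite directions in the 2 Plekhg5 genotypes. It measured 12.1, 10.01 and 8.45 CPM in Plekhg5+/+ mice and 19.2, 13.1 and 12.1 CPM in Plekhg5+/+ SOD1-G93A mice, so that these groups met at 12.1 CPM. Mice without Plekhg5 measured 13.2, 11.7 and 11.1 CPM, and in Plekhg5-/- SOD1-G93A mice 10.7, 11.4 and 10.2 CPM. All 3 Plekhg5-/- SOD1-G93A libraries lay below all 3 Plekhg5+/+ SOD1-G93A libraries, as was the case, lower, for 10% of all genes in that comparison. The transgene gave a ratio of 1.45 with Plekhg5 (log2 fold change 0.54, SE 0.17, edgeR adjusted p = 0.108) and 0.895 without it (log2 fold change -0.16, SE 0.17, edgeR adjusted p = 0.95). The interaction, which is the difference between these log2 fold changes, was -0.70 (SE 0.24, 95% interval -1.21 to -0.19), with an unadjusted p of 0.0114 and an adjusted p of 0.447 in edgeR's quasi-likelihood test. DESeq2 called Gadd45a in Plekhg5+/+ mice (adjusted p = 0.0494), and without replicate 1 of Plekhg5+/+ SOD1-G93A the edgeR log2 fold change there was 0.30 (adjusted p = 0.391) and the interaction was -0.46 (adjusted p = 0.624). Without replicate 2 of Plekhg5-/- SOD1-G93A the Gadd45a log2 fold change in Plekhg5-/- mice was -0.20 and the interaction was -0.74 (edgeR adjusted p = 0.755).

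Loss of Plekhg5 moved none of the 7 genes past the threshold. Within SOD1-G93A mice 0 of 7 were called by edgeR and by DESeq2, where edgeR called 0.0347% of all genes and DESeq2 0.424%. At an unadjusted p under 0.05 there was 1 of 7, beside 8.64% of all genes, and this was Gadd45a (log2 fold change -0.46, 95% interval -0.82 to -0.10, edgeR adjusted p = 0.517). Without replicate 2 of Plekhg5-/- SOD1-G93A this value was -0.50, and those of Gap43, Jun, Sox11 and Ecel1 were -0.10, 0.04, -0.04 and 0.07. Between mice without the transgene 0 of 7 were called by either tool and 0 had an unadjusted p under 0.05, where edgeR called 0.0298% of all genes, DESeq2 0.153%, and 5.32% had such a p. The log2 fold changes of Jun, Sox11, Sprr1a, Gap43 and Ecel1 with the loss of Plekhg5 lay between -0.06 and 0.01 in SOD1-G93A mice and between -0.07 and 0.14 in mice without the transgene. The interaction called 0 of 7 by either tool and 1 of 7, Gadd45a, at an unadjusted p under 0.05, where edgeR called 0% of all genes, DESeq2 0.537%, and 9.05% had an unadjusted p under 0.05. The comparisons share libraries, and their values are therefore given side by side only.

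**Figure D3:**
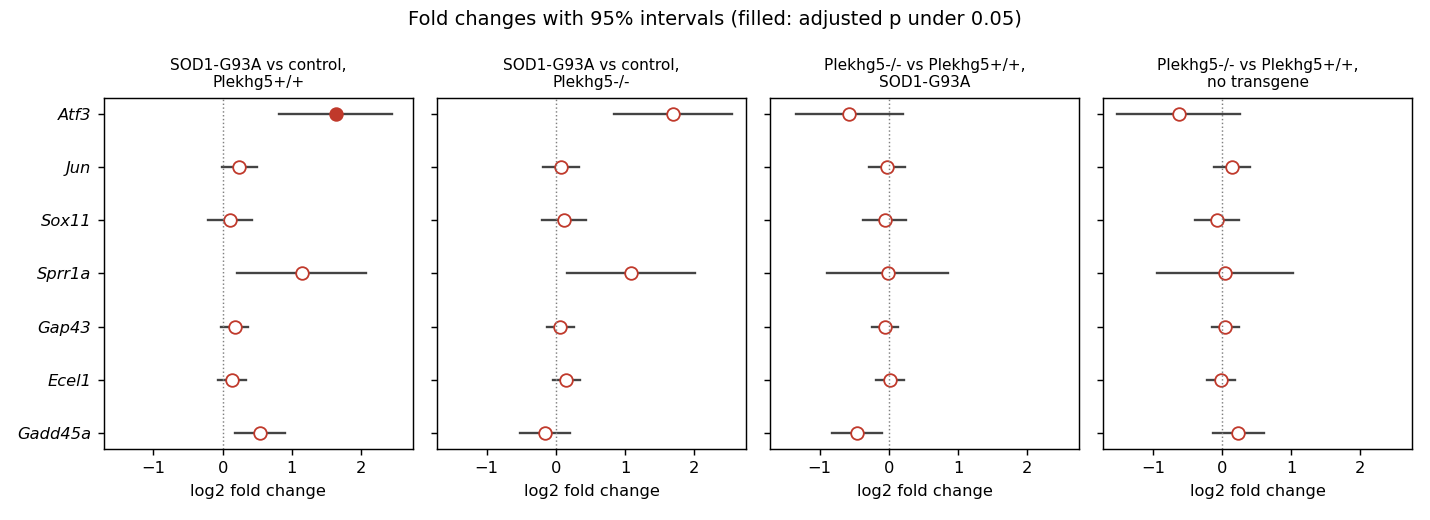
Log2 fold changes of the 7 genes in 4 comparisons, with 95% intervals from edgeR's quasi-likelihood fit of all 12 libraries. The filled point, Atf3 at 1.64 in Plekhg5+/+ mice, is the only one with an adjusted p under 0.05, and the intervals of Gap43, Jun, Sox11 and Ecel1 all include 0.

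Precision differed widely among the 7 genes. The SD within genotypes, pooled over the 4 genotypes and divided by the mean of all 12 libraries, was 56.5% for Atf3 and 38.3% for Sprr1a. It was 18.6% for Gadd45a, 13.7% for Sox11, 12.3% for Jun, 9.30% for Ecel1 and 8.20% for Gap43. For Atf3 the SD was 5.09 CPM in Plekhg5+/+ SOD1-G93A mice. It was 0.777 CPM in Plekhg5+/+, 0.572 CPM in Plekhg5-/- and 1.04 CPM in Plekhg5-/- SOD1-G93A mice. Counting error alone would give 8.06% for Atf3 and 12.7% for Sprr1a, so most of the spread of both lay between the libraries. Ranked by mean CPM, Plekhg5+/+ SOD1-G93A stood first for 6 of the 7 genes and Plekhg5-/- SOD1-G93A for Ecel1. The neighbours in this order differed by more than the larger of their SDs at few places. For Atf3 these were the steps from Plekhg5-/- SOD1-G93A to Plekhg5+/+ and from Plekhg5+/+ to Plekhg5-/-, for Sprr1a the step from Plekhg5-/- SOD1-G93A to Plekhg5-/-, for Ecel1 the step from Plekhg5+/+ SOD1-G93A to Plekhg5+/+, and for Gadd45a the step from Plekhg5-/- to Plekhg5-/- SOD1-G93A.

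Replicate 1 of Plekhg5+/+ SOD1-G93A was the highest of 12 libraries for 4 of the 7 genes, Atf3, Jun, Sox11 and Gadd45a, and replicate 1 of Plekhg5-/- SOD1-G93A for Sprr1a and Ecel1. In bulk tissue a change in the number of cells of a type and a change in RNA per cell cannot be told apart. The same Plekhg5+/+ SOD1-G93A library had the highest summed level of 10 microglia genes, 1342 CPM, where the genotypes ranged over 374.9 to 422.1 CPM in Plekhg5+/+, 397.6 to 554.2 CPM in Plekhg5-/-, 701.8 to 1342 CPM in Plekhg5+/+ SOD1-G93A and 524.4 to 581 CPM in Plekhg5-/- SOD1-G93A mice. In Plekhg5+/+ mice edgeR called 9 of the 10 microglia genes higher with the transgene, where 2.47% of all genes were called in either direction. In Plekhg5-/- mice it called 0 of 10, where 0.00496% of all genes were called. There 8 of the 10 log2 fold changes were above 0, with a median of 0.255. Without overlap 3 of these 10 genes were higher, beside 7.26% of all genes. The loss of Plekhg5 in SOD1-G93A mice gave a median of -0.71 for the microglia genes. There 9 of 10 were lower without overlap, beside 10% of all genes, and edgeR called 0, beside 0.0347%. For the interaction 9 of 10 had an unadjusted edgeR p under 0.05, beside 9.05% of all genes, and 0 were called, beside 0%. Sums of 10 astrocyte genes ranged over 3613 to 4393 CPM in Plekhg5+/+, 3884 to 5231 CPM in Plekhg5-/-, 5491 to 8797 CPM in Plekhg5+/+ SOD1-G93A and 4821 to 4877 CPM in Plekhg5-/- SOD1-G93A mice. With the transgene 4 of the 10 genes were called higher in Plekhg5+/+ and 0 of 10 in Plekhg5-/- mice, beside 2.47% and 0.00496% of all genes. The loss of Plekhg5 in SOD1-G93A mice gave them a median of -0.31. There 3 of 10 were lower without overlap and 0 were called, beside 10% and 0.0347% of all genes. The same library, replicate 1 of Plekhg5+/+ SOD1-G93A, had the highest astrocyte sum and the lowest sum of 10 motoneuron genes, 244.2 CPM. Motoneuron sums ranged over 347.8 to 352 CPM in Plekhg5+/+, 338.7 to 355.5 CPM in Plekhg5-/-, 244.2 to 318 CPM in Plekhg5+/+ SOD1-G93A and 267.9 to 378.5 CPM in Plekhg5-/- SOD1-G93A mice, so transcripts of motoneurons were present in all 12 spinal cord libraries. With the transgene 0 of 10 motoneuron log2 fold changes were above 0 in Plekhg5+/+ mice, with a median of -0.271, and 1 gene was called lower, beside 2.47% of all genes called. In Plekhg5-/- mice 2 of 10 were above 0, with a median of -0.07, and 0 were called, beside 0.00496% of all genes. Sums of 10 oligodendrocyte genes lay between 24290 and 28080 CPM in Plekhg5+/+, 24390 and 31910 CPM in Plekhg5-/-, 23790 and 28030 CPM in Plekhg5+/+ SOD1-G93A and 22520 and 24550 CPM in Plekhg5-/- SOD1-G93A mice. The part of these cell types in the Atf3 and Gadd45a values was not tested.

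Markers of the other cell types in which these genes are known were followed too. Sums over 10 Schwann cell genes were 239.1 to 489 CPM in Plekhg5+/+, 235.1 to 296.1 CPM in Plekhg5-/-, 250.7 to 347.7 CPM in Plekhg5+/+ SOD1-G93A and 440.1 to 603.2 CPM in Plekhg5-/- SOD1-G93A libraries. With the transgene 9 of 10 log2 fold changes were above 0 in Plekhg5-/- mice, with a median of 1.57, beside 48.3% of all genes. In Plekhg5+/+ mice 5 of 10 were, with a median of -0.12, beside 49.7%. With the loss of Plekhg5 9 of 10 were above 0 in SOD1-G93A mice, with a median of 0.98, beside 47.5%. Without the transgene 0 of 10 were, with a median of -0.54, beside 52%. EdgeR called 0 of the 10 in each comparison. Their part in the members' values in these comparisons and in the interaction was not tested. Keratinocyte genes, listed because Sprr1a is also an epidermal gene, summed to 18.99 to 23.17 CPM over the 12 libraries. The skin keratins Krt5 and Krt14 failed the filter on low counts, and were highest in Plekhg5-/- replicate 2, at 0.874 and 0.814 CPM. The part of these transcripts in the Sprr1a values was not tested. Leaving out the library with the dorsal root ganglion transcripts gave Sprr1a a log2 fold change of 1.28 in Plekhg5-/- mice in place of 1.09, and left the values of Gap43, Jun, Sox11 and Ecel1 in that comparison between 0.02 and 0.21.

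The wider injury response was measured with 6 lists, which held 98 genes of which 91 were tested. In Plekhg5+/+ mice the transgene raised 2 of the 91 and lowered 1, with a median log2 fold change of 0.02 and 50 of 91 above 0. Of all genes tested, 2.47% were called there in either direction and 49.7% had a log2 fold change above 0. In Plekhg5-/- mice, with the loss of Plekhg5 in either background, in the mean effect and in the interaction edgeR called 0 of 91, beside the shares of all genes given above. DESeq2 called 10 of 91 in Plekhg5+/+ mice, 9 for the mean effect, 1 for the loss of Plekhg5 in SOD1-G93A mice, 1 for the interaction and 0 in both other comparisons. Of all genes with a DESeq2 adjusted p, the shares called in that order were 5.91%, 3.94%, 0.424% and 0.537%. They were 0.206% for the transgene in Plekhg5-/- mice and 0.153% for the loss of Plekhg5 without the transgene. The called genes were Jund from the transcription factor list and Csf1 and Lifr from the list of peptides and cytokine genes.

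Jund, a member of the Jun family that is present in resting cells, measured 81.2, 78.1 and 97.9 CPM in Plekhg5+/+ and 117.8, 119.8 and 125.8 CPM in Plekhg5+/+ SOD1-G93A mice, and rose by 0.50 on the log2 scale (SE 0.11, edgeR adjusted p = 0.0372). Csf1, the microglial growth factor that injured motoneurons and sensory neurons make, went from 56.3, 57.1 and 51.4 CPM to 102.2, 73.7 and 70.0 CPM, a rise of 0.58 (SE 0.12, edgeR adjusted p = 0.0256). Lifr, the receptor subunit for leukaemia inhibitory factor, fell by 0.36 (SE 0.06, edgeR adjusted p = 0.0155), from 103.0, 111.2 and 105.3 CPM to 83.7, 87.8 and 77.8 CPM. For each of the 3 genes the Plekhg5+/+ groups did not overlap. Without Plekhg5 the log2 fold changes with the transgene were 0.07 for Jund, 0.06 for Csf1 and -0.005 for Lifr, and the interactions of -0.43, -0.51 and 0.35 had edgeR adjusted p values of 0.458, 0.407 and 0.338. Without Plekhg5+/+ replicate 1 or replicate 2, 0 of the 91 genes were called in Plekhg5+/+ mice.

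**Figure D4:**
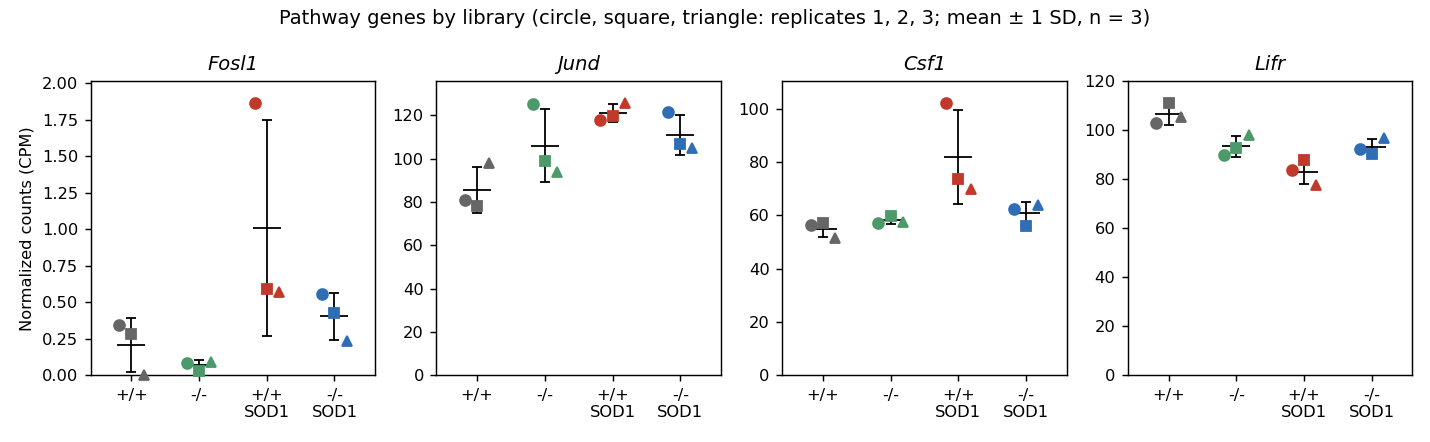
Normalized counts (CPM) of Fosl1, Jund, Csf1 and Lifr in each library, by genotype (SOD1 stands for SOD1-G93A), with the mean ± 1 SD (n = 3). Jund and Csf1 are higher and Lifr is lower in all 3 Plekhg5+/+ SOD1-G93A libraries than in the 3 Plekhg5+/+ libraries.

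Among the 21 injury transcription factors, Fosl1 and Fosl2 had the log2 fold changes of largest size with the transgene in Plekhg5+/+ mice, in opposite directions. Fosl1, which forms AP-1 dimers with Jun, had 12, 9 and 0 counts in Plekhg5+/+, 60, 18 and 19 in Plekhg5+/+ SOD1-G93A, 3, 1 and 3 in Plekhg5-/- and 18, 14 and 9 counts in Plekhg5-/- SOD1-G93A libraries. The transgenic mice thus had the higher counts within each Plekhg5 genotype, but from few reads, and the log2 fold changes of 2.23 (95% interval 0.77 to 3.69) and 2.43 (0.45 to 4.42) were not called (edgeR adjusted p = 0.101 and 0.839). Fosl2 had a log2 fold change of -0.93 with the transgene in Plekhg5+/+ mice (edgeR adjusted p = 0.146) and -0.18 in Plekhg5-/- mice.

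The kinase list, which holds DLK (Map3k12), LZK (Map3k13), the JNK genes and their scaffolds, had 0 of 14 calls by edgeR. With the transgene edgeR called 2.47% of all genes in Plekhg5+/+ and 0.00496% in Plekhg5-/- mice. With Plekhg5 the transgene gave 1 of 14 log2 fold changes above 0, with a median of -0.13, and without Plekhg5 10 of 14, with a median of 0.04. Map3k13 at -0.34 and Sarm1, the NAD-cleaving enzyme of axon degeneration, at -0.29 had the largest values in Plekhg5+/+ mice (edgeR adjusted p = 0.215 and 0.164).

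Of 22 growth and cytoskeleton genes 0 were called by edgeR, with a median of 0.12 in Plekhg5+/+ and 0.03 in Plekhg5-/- mice. The shares of all genes called with the transgene were 2.47% and 0.00496%. The urokinase receptor gene Plaur at 0.78 and the small heat shock protein gene Hspb1 at 0.58 had the largest values with Plekhg5 (edgeR adjusted p = 0.305 and 0.211). In the list of injury peptides and cytokine genes, which also holds Csf1 and Lifr, the cytokine Lif had a log2 fold change of 1.34 and its feedback inhibitor gene Socs3 one of 1.28 in Plekhg5+/+ mice (edgeR adjusted p = 0.101 and 0.189). Socs3 measured 15.4, 6.73 and 3.69 CPM in Plekhg5+/+ SOD1-G93A mice, again with replicate 1 the highest. From the same list Il6 and Arg1 did not pass the filter, with at most 4 and 18 counts in any library.

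Damage and stress genes, the group nearest to Gadd45a, had 0 of 10 calls by edgeR, with a median of 0.11 in Plekhg5+/+ and 0.01 in Plekhg5-/- mice. The shares of all genes called with the transgene were 2.47% and 0.00496%. Trib3, a pseudokinase induced by the integrated stress response, had log2 fold changes of 0.77 with Plekhg5 and 0.85 without it (edgeR adjusted p = 0.136 and 0.676), and Cdkn1a, the p53 target that encodes a cell cycle inhibitor, had -0.53 and -0.24. The Gadd45a relatives Gadd45b and Gadd45g had 0.25 and 0.11 in Plekhg5+/+ mice (edgeR adjusted p = 0.122 and 0.779). Of 10 relatives of the other members 5 were tested and 0 called by edgeR, beside the same shares of all genes. Nrgn, which shares a calmodulin-binding motif with Gap43, had 0.26, and Mme, the neprilysin gene and a relative of Ecel1, had -0.12. The Sprr1a relatives Sprr1b and Sprr3 had 0 counts in all 12 libraries, and Sprr2a1, Sprr2d and Sprr4 did not pass the filter, so that Sprr1a was the only one of the 6 Sprr genes followed that could be tested.

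**Figure D5:**
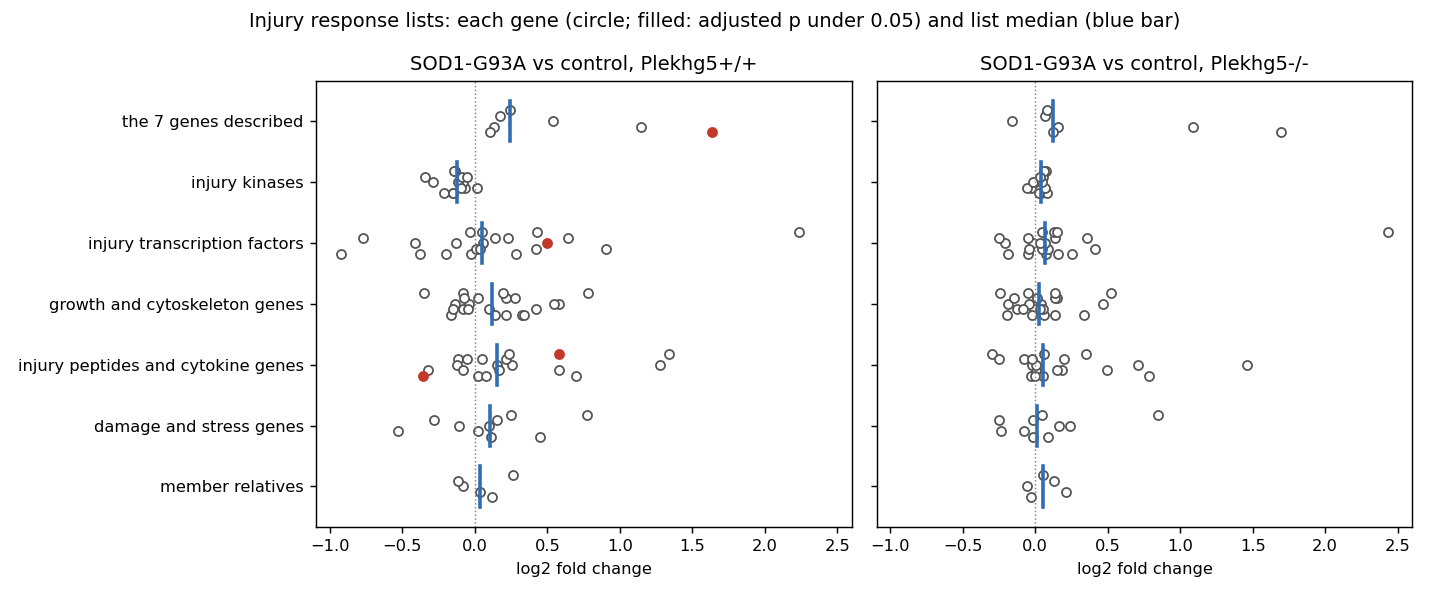
Log2 fold change with the SOD1-G93A transgene of the 7 genes and of 6 lists of injury response genes, in Plekhg5+/+ and in Plekhg5-/- mice. Circles are genes, filled where the adjusted p is under 0.05, and blue bars are list medians. In Plekhg5+/+ mice Atf3, Jund, Csf1 and Lifr are filled, and in Plekhg5-/- mice no gene is.

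When the 6 transgenic and the 6 other libraries were set against each other, 3 of the 91 genes shared with Atf3 a range without overlap, all higher in transgenic mice, where 1.52% of all genes were higher in this way, and 0 were lower, where 0.288% of all genes were. The genes were picked out after their values were seen. They were Stat3 (99.8 to 139.2 CPM against 90.7 to 99.0 CPM), the low-affinity neurotrophin receptor Ngfr (5.53 to 8.11 CPM against 3.22 to 5.21 CPM) and Trib3 (0.63 to 1.05 CPM against 0.422 to 0.598 CPM). None of them was called in a comparison of genotypes by edgeR.

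The genes whose log2 CPM followed each member most closely over the 12 libraries were ranked by Pearson's r, as a description only, since the libraries share their depth and cell composition and fall into 4 genotypes. For Atf3 they were Hmga1b (r = 0.961), Arpc1b (r = 0.948) and Il1rn (r = 0.944), for Jun Itga7 (r = 0.904), Sox2 (r = 0.896) and Lif (r = 0.887), and for Gadd45a Ifi27 (r = 0.959), Plscr2 (r = 0.922) and Aldh1l2 (r = 0.92). For Sprr1a the nearest were Itga6 (r = 0.92), Atp8b1 (r = 0.911) and Plekhg2 (r = 0.906). Gap43 was followed by Pcbp2 (r = 0.942), Ddost (r = 0.941) and Sgta (r = 0.938), Ecel1 by Padi4 (r = 0.879), Rn7sk (r = 0.877) and Ifitm6 (r = 0.874), and Sox11 by Atf1 (r = 0.869), Slc6a19 (r = 0.85) and Pofut1 (r = 0.837). No member was among the 3 nearest genes of another member. Between members r ran from -0.058 (Sprr1a and Gap43) to 0.763 (Atf3 and Sprr1a). For deviations from the genotype means it ran from -0.798 (Sprr1a and Gap43) to 0.901 (Atf3 and Jun).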

How the data were processed

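Total spinal cord RNA of 12 mice was sequenced as stranded, poly-A selected, single-end libraries. The values deposited by the authors are estimated counts per gene, made by counting reads on exons, without normalization. According to the study's methods, reads were trimmed with Cutadapt 2.4, mapped with STAR 2.7.2b to GRCm38.p6 plus the human SOD1 cDNA, and counted by strand with featureCounts 1.6.4 on RefSeq exons, a read with several matches giving a fraction to each. Sox11 had fractional counts in 5 libraries and Ecel1 in 1. Reads that match near-identical genes are therefore shared between them. For each of the 12 columns the genotype and replicate number in its name gave the mouse.

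Counts were rounded, filtered with filterByExpr at its defaults (20155 of 45906 genes kept), scaled by TMM and fitted over all 12 libraries and 4 genotypes with edgeR 4.0.16 in R 4.3.3 (robust quasi-likelihood test, Benjamini-Hochberg adjustment over all genes tested, threshold 0.05). SEs are the log2 fold change over the root of F. CPM come from unrounded counts, and log2 CPM use a prior count of 2. Replicates differed beyond sampling noise (chi-square per degree of freedom 5.67 to 27.4). They were separate mice, so p-values measure the spread between mice.

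The 7 members and all gene lists were chosen with earlier results of these data known. Genes named besides the members are the targeted genes, genes of the 6 lists that were called in any comparison, the 2 of each list with the largest log2 fold change in size with the transgene in Plekhg5+/+ mice, and the 3 genes most like each member. Gadd45b, Gadd45g, Stat3, Ngfr, Map3k12 and genes under the filter were named beyond that rule, after their values were seen. Alternatives were DESeq2 1.42.0 with and without a fold-change prior (the study used the prior), DESeq2 size factors, no filter, at least 10 counts in every library, only the genotypes compared, a replicate block, a Y-linked covariate (over 1000 Y-linked counts), and each library left out. On simulated data of 20155 genes for the transgene comparison in Plekhg5+/+ mice, edgeR called 86 of 100 genes changed 2-fold, 98 of 100 changed 4-fold and 10 unchanged genes. The simulated counts were drawn independently for each library at the spread fitted to each gene, without differences in cell composition. These shares therefore need not hold for the real libraries or for a single member. RefSeq windows matched 6 of 7 members.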

Additional observations from a re-analysis of the deposited data

Results flagged for a closer look

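Gadd45a was singled out because its difference with the SOD1-G93A transgene pointed in opposite directions in the Plekhg5 genotypes. Against the mean of the mice without the transgene of the same Plekhg5 genotype, it was higher in 3 of 3 Plekhg5+/+ SOD1-G93A mice and in 0 of 3 Plekhg5-/- SOD1-G93A mice. These counts restate the values by which Gadd45a was singled out and add no support. Single Plekhg5+/+ and Plekhg5+/+ SOD1-G93A mice met at 12.1 CPM. Against the Plekhg5+/+ mean, the Plekhg5-/- SOD1-G93A mice were at 1.05, 1.12 and 1.00 times that level. The interaction of -0.70 on the log2 scale (-0.698) had an unadjusted p of 0.0114 and an adjusted p of 0.447 in edgeR's quasi-likelihood test, and did not pass the correction over 20155 genes, of which 9.05% had an unadjusted p under 0.05. Its value ran from -0.84 to -0.45 over the alternatives, with adjusted p from 0.226 to 0.8.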

How the results depend on the processing

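Limits come first. With 3 mice a genotype, the calls depend on few libraries, and Atf3 and Sprr1a had at most 460 and 113 counts in any library. Of 826 log2 fold changes of members under alternatives, 760 kept their direction and their side of the threshold. Most were not called in the main fit, so this count says little about the calls. Atf3 kept its call in 8 of 20 alternatives in Plekhg5+/+ mice and in 13 of 19 for the mean effect. In Plekhg5+/+ mice, 1 member was called with the transgene, and 2 were called by DESeq2, 2 by DESeq2 with the fold-change prior, 2 with the replicate block, 0 without the filter, 0 with only the genotypes compared, and 0 to 1 with single libraries left out (Atf3 remained without Plekhg5+/+ SOD1-G93A replicate 2 or 3). The gene beside Atf3 was Gadd45a (0.53, adjusted p = 0.0494 by DESeq2; 0.34, adjusted p = 0.0466 with the prior; 0.53, adjusted p = 0.0402 by edgeR with the block). In Plekhg5-/- mice 0 were called, and 1, Atf3, by DESeq2 (adjusted p = 0.00425), by DESeq2 with the prior (adjusted p = 0.0316), with only the genotypes compared (edgeR adjusted p = 0.045) and without Plekhg5+/+ SOD1-G93A replicate 1 (edgeR adjusted p = 0.0495), so 0 to 1 with single libraries left out. For the mean effect 1 was called, 2 by DESeq2 and 2 with the prior (Sprr1a, adjusted p = 0.0143 and 0.0168), and 0 to 1 with single libraries left out. The call was lost without Plekhg5+/+ replicate 1 or 2, Plekhg5-/- replicate 2 or 3, or Plekhg5-/- SOD1-G93A replicate 1 or 2. The other comparisons gave 0 under every alternative. Fits with fewer libraries have fewer samples by construction, and beyond that the cause was not tested.

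Over all genes the calls in Plekhg5+/+ mice numbered 498, and 2 to 771 with single libraries left out, 3 with only the genotypes compared, 1159 by DESeq2 and 1200 with the prior. In Plekhg5-/- mice they ran from 0 to 43, for the mean effect from 10 to 822 around 245, and for the interaction from 0 to 112. Among the 91 pathway genes the 3 calls in Plekhg5+/+ mice became 10 by DESeq2, 11 with the prior, 9 with the block, 5 with the Y-linked covariate and 0 with only the genotypes compared. For the mean effect the 0 calls of edgeR became 9 by DESeq2, 9 with the prior, 6 with the block and 8 without Plekhg5+/+ SOD1-G93A replicate 3.

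Directions reversed for some members in comparisons whose 95% interval included 0. With the Y-linked covariate the loss of Plekhg5 gave 0.076 for Sprr1a and 0.035 for Jun in SOD1-G93A mice and 0.044 for Ecel1 without the transgene, and DESeq2 with the prior gave an Atf3 interaction of -0.086. The cause was not tested. With single libraries left out, the loss of Plekhg5 in SOD1-G93A mice ranged from -0.86 to 0.034 for Atf3, -0.13 to 0.089 for Ecel1, -0.10 to 0.006 for Gap43, -0.12 to 0.12 for Jun, -0.19 to 0.12 for Sox11 and -0.29 to 0.26 for Sprr1a. Without the transgene it ranged from -0.036 to 0.019 for Ecel1, -0.042 to 0.11 for Gap43, -0.14 to 0.021 for Sox11 and -0.45 to 0.43 for Sprr1a. The transgene gave -0.002 to 0.18 for Jun in Plekhg5-/- and -0.077 to 0.23 for Sox11 in Plekhg5+/+ mice. Interactions ranged from -0.23 to 0.66 for Atf3, -0.11 to 0.11 for Ecel1, -0.11 to 0.20 for Sox11 and -0.44 to 0.43 for Sprr1a.

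The labels do not say whether mice of the same replicate number were paired, and the replicate block was fitted only as an alternative. Over 18 pairs of same-numbered libraries the correlation of deviations from the group means ran from -0.163 to 0.318, 5 exceeded 0.1, and 6 of 12 libraries were closest to one of their own number. The median of these 18 was 0.005. Pairs of different numbers ran from -0.334 to 0.283, so these values do not settle whether mice were paired. With the replicate block Atf3 had a log2 fold change of 1.57 in Plekhg5+/+ mice (edgeR adjusted p = 0.0259), and the count of members called went from 1 to 2. Calls over all genes in that comparison went from 498 to 631.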
